A study of Mus musculus with 43 samples.

Results

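The peaks described here are regions called from CUT&Tag with an antibody to H4R3me2s, histone H4 symmetrically dimethylated at arginine 3, in wild-type (WT) mouse testis cells at postnatal day 7 (P7) and postnatal day 14 (P14). In CUT&Tag, an antibody directs a tagging enzyme to chromatin that carries the mark, and the released fragments are sequenced. The members are all peaks of the WT H4R3me2s lists, 2 lists at P7 and 3 at P14, which gave 130619 of the 935217 peaks in the 33 CUT&Tag lists of the series, from 5 of its 43 samples. The series follows the loss of Prmt1, the main enzyme of asymmetric arginine dimethylation, in the male germ line. Both ages were labelled WT, with no treatment other than the antibody, and the mice of the study were on the C57BL/6J background. Testis tubules were freed of interstitial cells with collagenase, dissociated with trypsin and strained against Sertoli cells, so the suspension was enriched in germ cells and not sorted. The P7 samples were labelled spermatogonia. The P14 samples carried spermatogonia in their titles and spermatocyte as cell type, and the peaks inside the P14 lists were named with the number 17 rather than 14, so age, cell type and preparation cannot be told apart in this comparison. The labels do not tie the lists to separate animals, so the spread between lists may be technical. The P7 RNA set beside the peaks was also labelled WT. For its sorted spermatogonia, however, the paper describes control males heterozygous for floxed Prmt1 that carried a germ line Cre. It also states that the RNA samples were taken after tamoxifen.

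Symmetric dimethylation of arginine is made by type II protein arginine methyltransferases, chiefly Prmt5 with its partner Wdr77. The same arginine of H4 can instead be dimethylated asymmetrically by Prmt1 (H4R3me2a), and a single residue cannot carry both forms. H4R3me2s is usually described as a mark of repressed genes, while H4R3me2a, H3K4me3 at promoters and H3K27ac at active promoters and enhancers are marks of active ones. In the testis, Prmt5 is required for germ cell survival, and between these ages the first wave of germ cells passes from mitotic spermatogonia into meiotic prophase.

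Sequences under 6 summits are shown because each stands for a class of regions in the results. All were read from the RefSeq GRCm38 (mm10) genome, 5′ to 3′ on the strand of the gene, and annotations were from GENCODE. Carm1 had a promoter peak in all 5 lists, Lrba and Tpp2 in the 3 P14 lists alone, and Usp46 in the 2 P7 lists alone. The last pair lay under peaks in exons of Xcl1, a lymphocyte chemokine, in P7 replicate 1, and of Obox5, an oocyte homeobox gene, in P7 replicate 2. The windows of Carm1, Lrba and Usp46 were upstream of the gene, and that of Tpp2 began inside it. Capitals mark the GC box GGGCGG in Lrba, the NF-Y box CCAAT, read as ATTGG on this strand, in Tpp2, and exon bases in Xcl1 and Obox5.
Carm1, chr9:21546316-21546516, plus strand: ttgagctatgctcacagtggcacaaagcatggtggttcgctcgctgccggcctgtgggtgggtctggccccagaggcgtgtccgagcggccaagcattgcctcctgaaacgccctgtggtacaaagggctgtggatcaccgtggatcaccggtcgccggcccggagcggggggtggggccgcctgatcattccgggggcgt
Lrba, chr3:86224278-86224478, plus strand: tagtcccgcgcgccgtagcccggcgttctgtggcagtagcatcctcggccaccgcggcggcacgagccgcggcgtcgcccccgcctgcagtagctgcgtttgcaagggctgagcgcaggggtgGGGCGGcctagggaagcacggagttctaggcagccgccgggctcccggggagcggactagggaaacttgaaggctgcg
Tpp2, chr1:43933772-43933972, plus strand: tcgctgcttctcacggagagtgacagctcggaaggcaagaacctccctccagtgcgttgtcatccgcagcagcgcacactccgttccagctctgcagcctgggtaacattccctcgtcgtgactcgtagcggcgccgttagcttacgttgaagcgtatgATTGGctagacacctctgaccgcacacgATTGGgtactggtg
Usp46, chr5:74068542-74068742, minus strand: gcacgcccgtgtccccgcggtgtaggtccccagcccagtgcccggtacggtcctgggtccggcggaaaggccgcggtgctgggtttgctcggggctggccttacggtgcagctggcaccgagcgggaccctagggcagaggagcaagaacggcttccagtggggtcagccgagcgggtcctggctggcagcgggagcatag
Xcl1, chr1:164931823-164932023, minus strand: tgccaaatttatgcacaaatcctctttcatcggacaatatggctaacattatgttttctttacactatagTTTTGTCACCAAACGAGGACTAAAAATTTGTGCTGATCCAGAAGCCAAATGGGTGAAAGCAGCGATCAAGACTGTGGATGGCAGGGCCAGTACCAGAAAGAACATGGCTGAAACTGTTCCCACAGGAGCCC
Obox5, chr7:15758788-15758988, plus strand: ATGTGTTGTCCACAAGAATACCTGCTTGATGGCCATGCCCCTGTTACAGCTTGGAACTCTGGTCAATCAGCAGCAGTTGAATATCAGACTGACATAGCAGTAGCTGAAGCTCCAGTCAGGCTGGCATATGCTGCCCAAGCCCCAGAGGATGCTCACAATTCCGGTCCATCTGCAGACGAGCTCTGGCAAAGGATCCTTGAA

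The promoter of Carm1 had a peak in all 26 WT lists of the other marks. The Lrba and Usp46 windows were rich in CpG, with 25 and 18 CpG dinucleotides, and the window of Xcl1 held 3.

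The lists were of unequal length. P7 replicate 1 held 19981 peaks and P7 replicate 2 held 36145, while the P14 lists held 33814, 18423 and 22256 peaks in replicates 1 to 3. Peaks with a q-value of at most 0.01 numbered 3112 and 1680 at P7 and 4251, 2109 and 2744 at P14, so the longer P7 list held the fewer strong peaks. Read depth was not given in the files, and its part in these counts was not tested. Among marker genes with an H3K4me3 promoter peak in both lists of an age, germ cell markers numbered 13 of 20 at P7 and 17 of 20 at P14, Sertoli cell markers 16 of 19 and 15 of 19, and macrophage markers 1 of 10 at each age, against 60.7% of all genes at P7 and 63.1% at P14. In such mixed suspensions, fewer cells of a type and less of the mark per cell cannot be told apart.

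P7 replicate 1 stood apart from the other lists in its peaks over exons, and P7 replicate 2 stood apart from the P14 lists only among the stronger peaks. In P7 replicate 1, 3223 peaks, or 16.1%, had their summit in an exon after the first or in a pseudogene exon (later exons). The share was 5.11% in P7 replicate 2 and 4.89%, 5.10% and 4.83% in the P14 lists. Among the peaks with a q-value of at most 0.01 it was 38.6% in P7 replicate 1, 10.95% in P7 replicate 2 and 3.18%, 2.84% and 2.92% at P14. The 2 H4R3me2s lists from Prmt1 dKO testes at P7, in which Prmt1 was deleted by a tamoxifen-inducible germ line Cre, had 4.62% and 4.68% by that measure.

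**Figure D1:**
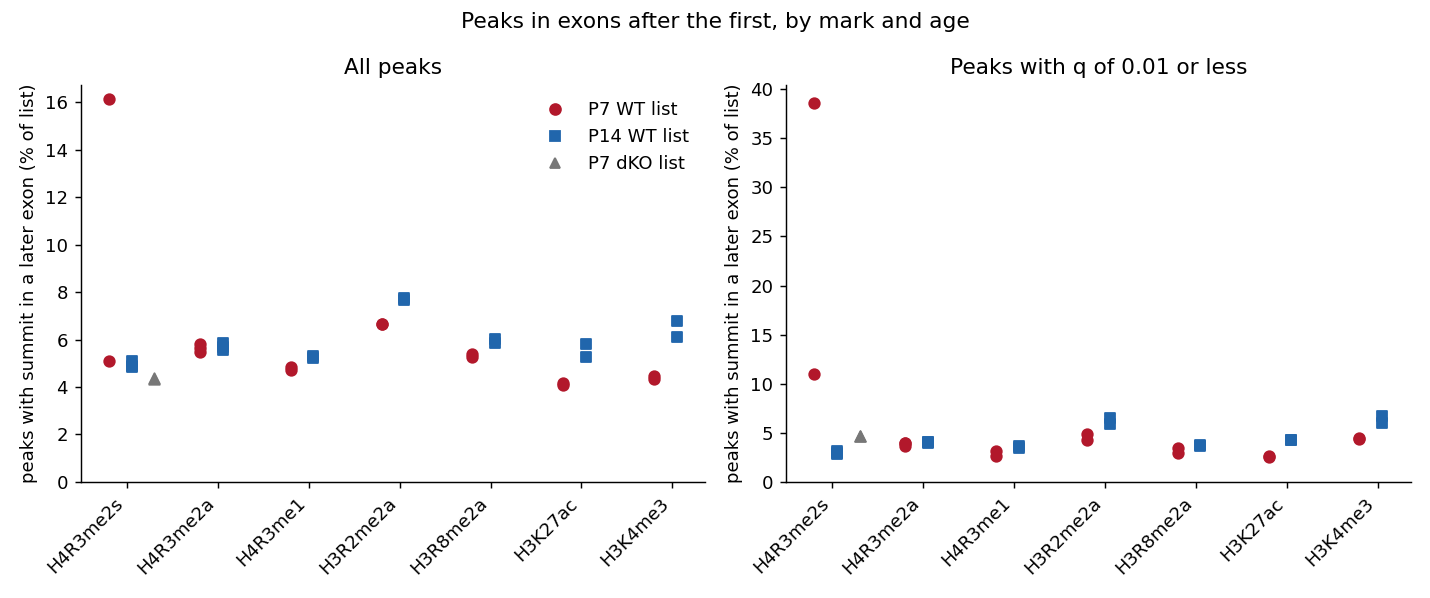
Each point is a peak list, by mark and age, and the y axis gives the percentage of its peaks with the summit in a later exon, over all peaks and over peaks with a q-value of at most 0.01. P7 replicate 1 of H4R3me2s sits at 16.1% and 38.6%, and the P14 lists of H4R3me2s at 4.83% to 5.10% and 2.84% to 3.18%.

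Most of the strongest peaks of P7 replicate 1 fell on such exons. Of 984 peaks with a fold enrichment over 6 in P7 replicate 1, 582 had a later-exon summit, compared with 87 of 424 in P7 replicate 2 and with 4 of 468, 7 of 397 and 10 of 421 at P14. The later-exon peaks of P7 replicate 1 lay in 2141 genes with a median of 45.8 TPM (expression scaled to transcript length and library size) in P7 WT whole-testis RNA, and those of P7 replicate 2 and the P14 lists in genes with medians of 12.4, 9.25, 15.3 and 12.7 TPM. They recurred little, since 7.04% of them overlapped a peak of P7 replicate 2 and 8.13% a peak of any P14 list, against 18.5% and 34.8% of the other peaks in that list.

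The exons belonged in part to genes of cell types that the labels do not name. Of 26 lymphocyte genes, 23 had an exon peak in P7 replicate 1, and 2, 2, 1 and 4 had one in P7 replicate 2 and P14 replicates 1 to 3. Over all protein-coding genes the shares with an exon peak, first exons included, were 19.4% and 15.9% at P7 and 21.2%, 14.7% and 16.4% at P14. At a q-value of at most 0.01 the lymphocyte counts were 16 in P7 replicate 1, where 5.48% of all genes had such a peak, and 0 in the other 4 lists, where 1.99% did in P7 replicate 2 and 5.97%, 3.01% and 3.57% at P14. Gzmb, a granzyme of cytotoxic lymphocytes, had a fold enrichment of 12.6 in P7 replicate 1 and no exon peak in the other 4 lists. Ifng, the gene of interferon gamma, had a fold enrichment of 11.9 there, and Ccl4, a chemokine gene, 14.5. In whole-testis RNA at P7, Gzmb stood at 0.78 TPM and Ifng at 0.0367 TPM (means, n = 3), and the 26 genes summed to 19.6 to 21.8 TPM. In Smart-seq2 of spermatogonia they summed to 26.97 and 5.69 TPM.

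Oocyte genes had their exon peaks in the other P7 list. Of 26 such genes, 0 had an exon peak in P7 replicate 1, 15 had one in P7 replicate 2, and 3, 2 and 2 had one in the P14 lists. At a q-value of at most 0.01, 12 had one in P7 replicate 2, where 1.99% of all genes did, and 0 in each other list. In the 3 P7 lists of H4R3me2a, 4, 2 and 0 of the oocyte genes had an exon peak, with 2, 1 and 0 at that q-value, where each P7 H3K4me3 list had 1. Oog3, an oocyte gene, had a fold enrichment of 9.70 in P7 replicate 2, Dppa3, a maternal factor gene that is also expressed in primordial germ cells, 11.7, and Bmp15, an oocyte growth factor gene, 7.78. Whole-testis RNA at P7 held 0 TPM of Oog3, 1.82 TPM of Dppa3 and 0.07 TPM of Bmp15. The list was partly expressed in these cells, since its 26 genes summed to 53.3 to 72.6 TPM in whole testis, and to 119.8 and 122.5 TPM in Smart-seq2 of spermatogonia, where Dppa3 had a mean of 12.4 TPM. Tle6, with means of 38.4 TPM in whole testis and 50.1 TPM in Smart-seq2, held the largest part and had no exon peak in P7 replicate 2. Zp3, at 1.32 and 21.9 TPM, had no such peak either, while Tcl1, at 11.9 and 23.7 TPM, did. Both lists of genes were written after the first such genes had been seen, so the counts are descriptions, and where these exon peaks came from was not tested. It was likewise not tested whether they carry the mark, so the P7 values that include them may not be of H4R3me2s alone. For some of the main values below, those without later-exon peaks are also given. Of the gene lists, only those of meiotic prophase and replication-dependent histone genes were counted again without such peaks, so the counts of the other lists may include them.

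The median peak was 213 bp wide in P7 replicate 1, 200 bp in P7 replicate 2, and 245, 241 and 240 bp in the P14 lists. All P14 medians were above both P7 medians. The P14 mean exceeded the P7 mean by 35.5 bp (206.5 ± 9.19 bp, SD, n = 2, against 242 ± 2.65 bp, SD, n = 3), with a two-sided exact permutation p of 0.2 over lists, the smallest that 2 against 3 lists allow, so no comparison of the ages can pass 0.05. The shortest width reported was 200 bp, which 46.9% and 54.0% of P7 peaks and 35.9%, 37.8% and 37.5% of P14 peaks had. Within promoters, the median was 249 and 223 bp at P7 and 279, 266 and 264 bp at P14. The order turned among peaks with a q-value of at most 0.01, where the medians were 384.5 and 376.5 bp at P7 and 360, 367 and 356.5 bp at P14. Without later-exon peaks these were 338.5 and 356 bp at P7 and 362, 366 and 357 bp at P14, with all P14 medians above both P7 medians again.

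**Figure D2:**
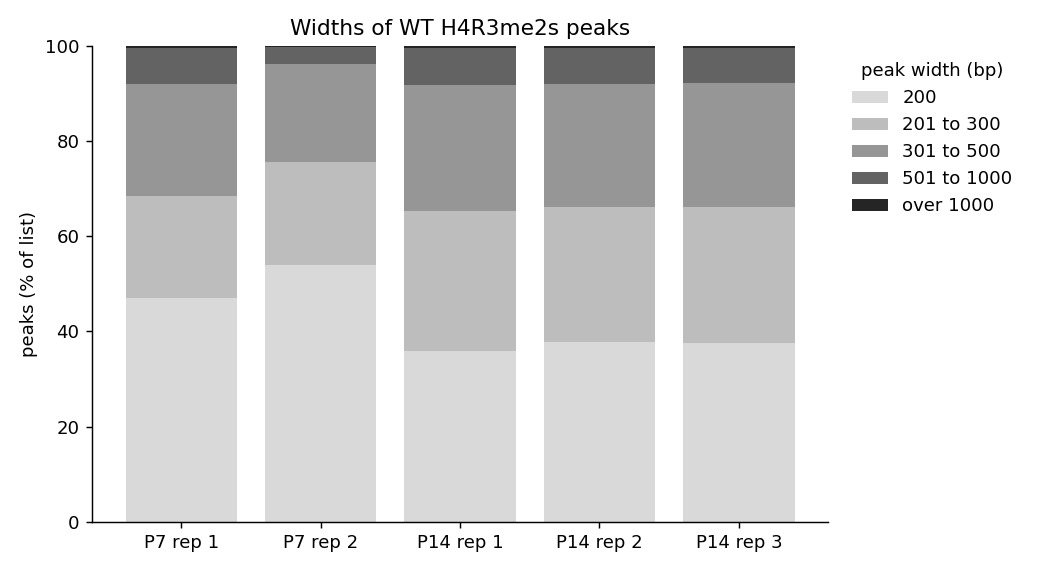
Stacked bars give, for each WT H4R3me2s list, the percentage of peaks in each width class in bp. The class of exactly 200 bp holds 46.9% and 54.0% of the peaks at P7 and 35.9% to 37.8% at P14.

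Promoters, taken as 3000 bp on each side of a start site, cover 15.1% of the genome. They held 48.7% of the peaks in P7 replicate 1, 28.9% in P7 replicate 2, and 37.3%, 45.9% and 42.5% in the P14 lists. The P14 lists fell between the P7 lists, with means of 38.8 ± 14.0% (SD, n = 2) at P7 and 41.9 ± 4.30% (SD, n = 3) at P14, a difference of 3.13 percentage points (two-sided exact permutation p = 0.8). The sign of the difference depends on which P7 list is taken, since it was 13.04 points without P7 replicate 1 and -6.78 points without P7 replicate 2. Distal intergenic regions held 23.3% and 39.3% of the peaks at P7 and 31.9%, 26.2% and 28.1% at P14, and introns 21.8% and 29.2% at P7 and 28.1%, 25.6% and 26.9% at P14.

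Peaks were scarce on the sex chromosomes at both ages. The X chromosome is 6.28% of the genome and held 1.34% and 1.28% of the peaks at P7 and 1.03%, 0.62% and 0.76% at P14. All P14 shares were below both P7 shares, with a difference in means of -0.502 percentage points (two-sided exact permutation p = 0.2, the smallest possible). At a q-value of at most 0.01 the difference was -1.34 points, with 3.08% and 1.73% at P7 against 1.1997%, 1.09% and 0.911% at P14, and without later-exon peaks with 1.47% and 1.404% at P7 against 1.19%, 1.07% and 0.863% at P14. With lists of equal length the ages overlapped, at 1.06% in P7 replicate 2 and 1.07% in P14 replicate 1. Without later-exon peaks the shares were 0.943% and 1.25% at P7 and 1.04%, 0.618% and 0.751% at P14, and the ages overlapped. Of 948 protein-coding genes on the X, 4 had a promoter peak in all 5 lists, against 8.73% of all genes, and 715 in no list, against 7233 of 21951. The Y chromosome, 3.37% of the genome, held 0.160% and 0.398% of the peaks at P7 and 0.127%, 0.152% and 0.166% at P14.

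H4R3me2s peaks coincided in part with active marks at both ages. An H3K4me3 peak of the same age overlapped 26.6% and 14.3% of the peaks at P7 and 24.4%, 33.0% and 30.1% at P14 (difference 8.73 percentage points, two-sided exact permutation p = 0.4). Without later-exon peaks the shares were 30.7% and 14.7% at P7 and 24.9%, 33.7% and 30.7% at P14. Among peaks with a q-value of at most 0.01 the shares were 42.3% and 58.7% at P7 and 66.2%, 76.4% and 68.9% at P14, and the ages did not overlap (two-sided exact permutation p = 0.2). Without later-exon peaks these were 65.9% and 63.97% at P7 and 66.9%, 77.01% and 69.4% at P14, so most of the distance between P7 replicate 1 and the P14 lists went with its later-exon peaks. H4R3me2a, the asymmetric form at the same arginine, overlapped 9.26% and 6.05% of the peaks at P7 and 23.6%, 31.5% and 29.3% at P14. Recurrent H4R3me2a peaks covered 0.0585% of the genome at P7 and 0.235% at P14, so the comparison across ages also carries the larger extent of that mark. The 2 forms on a shared region may lie on different cells, alleles or H4 tails, which these data do not separate.

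The P14 lists overlapped each other more than any other pair did. The Jaccard index, the base pairs shared by 2 lists over those covered by either, was 0.0568 between the P7 lists and 0.100, 0.106 and 0.110 between the pairs of P14 lists. P7 replicate 1 had 0.0765, 0.0821 and 0.0815 with the P14 lists, and P7 replicate 2 had 0.0695, 0.0660 and 0.0688. The P7 pair was therefore the least alike of the 10 pairs. It stayed so without later-exon peaks, at 0.0586, where P7 replicate 1 had 0.0821, 0.0908 and 0.0893 with the P14 lists. Over all peaks, pairs within an age exceeded pairs across ages by 0.0192 (two-sided exact permutation p = 0.2). The difference was 0.0373 without P7 replicate 1 and 0.00865, 0.00738 and 0.0051 without P14 replicate 1, 2 or 3. Among peaks with a q-value of at most 0.01, the index was 0.154 for the P7 pair, 0.211 to 0.243 for the P14 pairs and 0.128 to 0.221 across ages, and the P7 pair was no longer the lowest.

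**Figure D3:**
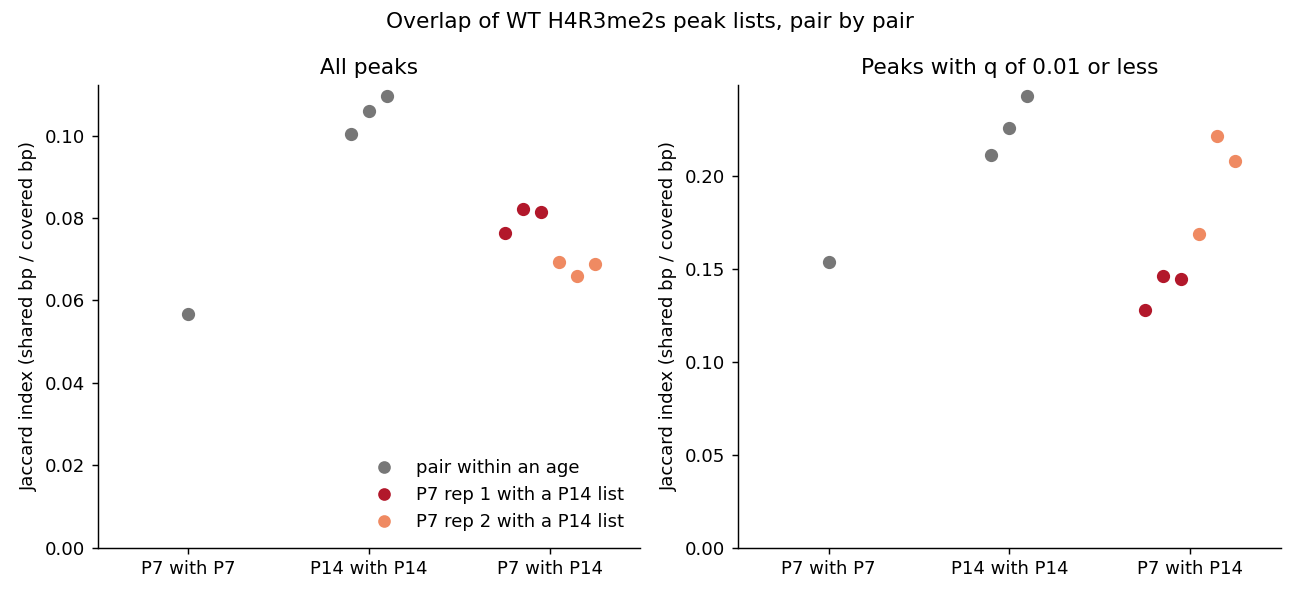
Each point is a pair of WT H4R3me2s lists and the y axis gives their Jaccard index, for all peaks and for peaks with a q-value of at most 0.01. Over all peaks the P14 pairs lie at 0.100 to 0.110, above the P7 pair at 0.0568 and above all pairs across ages.

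Single peaks recurred in a minority of cases at both ages. Of the peaks in P7 replicate 1, 16.6% overlapped a peak of P7 replicate 2, and 9.19% of the peaks in P7 replicate 2 overlapped one of P7 replicate 1. At P14, where there were 2 other lists to overlap, the shares were 23.7%, 35.9% and 32.6%. Against 1 other list at a time they were 15.5% and 17.5% for P14 replicate 1, 28.7% and 23.98% for replicate 2 and 26.6% and 19.98% for replicate 3, so P14 replicate 1 was like P7 replicate 1. Promoter peaks recurred more than other peaks in every list, at 22.4% against 11.1% and 21.01% against 4.39% at P7 and at 41.4% against 13.1%, 52.5% against 21.8% and 49.8% against 19.9% at P14. Strong peaks recurred more often than all peaks, and with a q-value of at most 0.01 the shares were 36.7% and 56.6% at P7 and 68.9%, 83.4% and 79.2% at P14.

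Merged across the 5 lists, the peaks formed 103194 regions, of which 88556, or 85.8%, were in 1 list alone and 1599, or 1.55%, in all 5. Regions in 1 list had a median width of 200 bp, and 27.6% lay in promoters. Regions in 4 lists were 680 bp wide with 77.7% in promoters, and regions in all 5 were 803 bp wide with 66.04% in promoters. H3K4me3 at P14 overlapped 7.79% of the regions in 1 list and 85.1% of those in all 5. Of the 26 WT lists of the other marks, a median of 0 covered a region in 1 list and a median of 22 covered a region in all 5. The P7 pair alone shared 630 regions. Regions of P14 alone numbered 1081, 1364 and 697 for the pairs of replicates 1 and 2, 1 and 3, and 2 and 3, and 639 for all 3. Pairs across ages alone shared 837, 422 and 503 regions for P7 replicate 1 and 1343, 566 and 771 for P7 replicate 2 with P14 replicates 1 to 3, so of the same-age pairs all but that of P14 replicates 1 and 3 lay within the range across ages.

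Of 21951 protein-coding genes, 14718 (67%) had a promoter peak in at least 1 list. The lists held 7257 (33.1%) and 7397 (33.7%) genes at P7 and 9198 (41.9%), 6933 (31.6%) and 7503 (34.2%) at P14, and without later-exon peaks 6481 and 7021 at P7 and 8913, 6661 and 7252 at P14. Both P7 lists shared 3904 genes (17.8%), at least 2 P14 lists shared 7515 (34.2%), and all 5 lists shared 1916 (8.73%). With 2 lists of 3 required at P14 and 2 of 2 at P7, the P14 count had the easier rule. Of the 7515, 1566 genes (7.13% of all genes) were in no P7 list, and of these 440 (2% of all genes) were in all 3 P14 lists, while 291 (1.33%) were in both P7 lists and no P14 list. These counts depend on the lists, since without P14 replicate 1 the 7515, 1566 and 291 became 4423, 704 and 597, without P7 replicate 1 the 1566 became 3069, and at a q-value of at most 0.01 they were 1438, 729 and 31. The 291 stood between the counts of genes shared by a pair of lists across ages alone, which were 500, 238 and 280 for P7 replicate 1 with P14 replicates 1 to 3 and 508, 227 and 266 for P7 replicate 2.

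Genes with a promoter peak in more lists were more highly expressed and carried more of the active marks. The median in P7 whole-testis RNA was 0.0467, 2.61, 13.5, 22.2, 29.5 and 34.8 TPM for genes in 0, 1, 2, 3, 4 and 5 lists. H3K4me3 in both P7 lists marked 22.0% of the promoters in no list and 99.0% of those in all 5, and H4R3me2a in at least 2 P14 lists marked 12.8% and 97.3%. The promoters also grew richer in CpG, with a median observed to expected ratio of 0.226 for genes in no list and 0.812 for genes in all 5. The genes of all 3 P14 lists and no P7 list had a median of 22.5 TPM and an H3K4me3 peak at P7 in 92.7%, those of at least 2 P14 lists and no P7 list 17.8 TPM and 84.99%, and those of the P7 lists alone 10.4 TPM and 70.1%, where genes in any 2 lists had 13.5 TPM and 78.5% and in any 3 lists 22.2 TPM and 91.2%. These are descriptions across genes, which are not independent, and RNA at P14 was not analysed here.

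**Figure D4:**
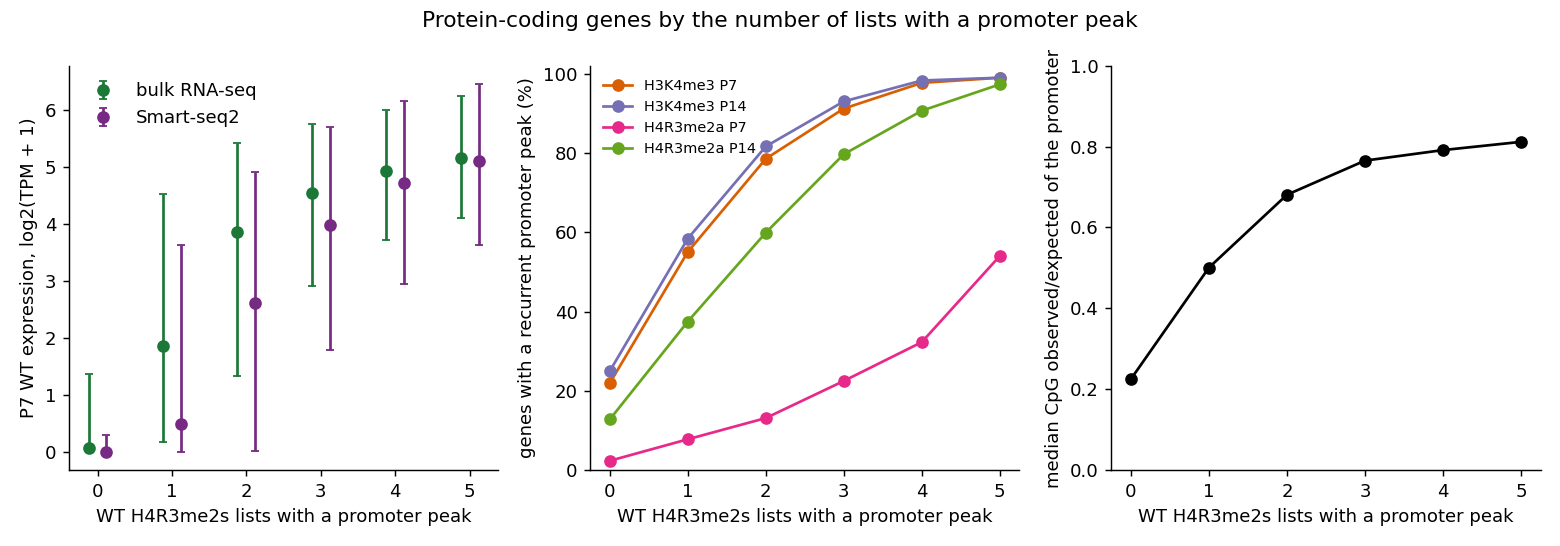
Protein-coding genes are grouped on the x axis by the number of WT H4R3me2s lists with a promoter peak. The panels give P7 WT expression as log2(TPM + 1) in whole-testis RNA and in Smart-seq2 of spermatogonia, with points at the median and bars to the quartiles, the percentage of genes with a recurrent promoter peak of H3K4me3 or H4R3me2a at each age, and the median CpG observed to expected ratio of the promoter, which rises from 0.226 to 0.812.

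The sequence under promoter summits also differed between the ages. In windows reaching 100 bp to each side of the summit, the median GC content was 55.7% and 54.2% at P7 and 57.7%, 58.7% and 58.7% at P14. The GC box of Lrba, GGGCGG on either strand, was in 23.1% and 20.2% of the windows at P7 and 25.8%, 28.02% and 27.9% at P14, against 32.6% of equal windows at the start sites of protein-coding genes. The NF-Y box of Tpp2, CCAAT on either strand, was in 19.3% and 20.6% at P7 and 17.6%, 17.1% and 17.7% at P14, against 23.8% at start sites. The ages did not overlap in any of these 3 measures. Later-exon peaks made up 20.6% and 9.18% of the promoter peaks at P7 and 6.43%, 6.17% and 6.05% at P14. Without them the GC content was 57.7% and 54.7% at P7 and 58.2%, 58.7% and 59.2% at P14, the GC box share 27.2% and 21.4% against 26.8%, 28.9% and 28.9%, and the NF-Y box share 17.5% and 20.4% against 17.3%, 16.97% and 17.5%. The ages then overlapped in the GC box, and P7 replicate 1 lay beside the P14 lists in all 3 measures.

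The genes with the strongest promoter peaks in all 5 lists were also covered in every other WT list. Phf21a, a gene of a histone reader, had −log10 p values of 20.3 and 29.1 at P7 and 26.8, 35.6 and 30.6 at P14. Slc45a1, a sugar transporter gene, had 25.3 and 30.6 at P7 and 30.7, 26.6 and 38.1 at P14. Zc3h7a, a zinc finger gene, had 40.2 and 51.8 at P7 and 77.4, 68.1 and 70.5 at P14. Plcb4, Gtf2ird1, Aida with Brox (a shared peak), Asmt on the X, and the mitochondrial mt-Cytb with mt-Nd6 (also a shared peak) completed the 10. Each of the 10 had a peak in all 26 WT lists of the other marks and in both dKO lists. Both dKO lists held a peak for 37.0% of the genes in all 5 lists and 9.82% of all genes. Under the P14 replicate 3 summits, the windows of Slc45a1, Asmt and Plcb4 were tandem repeats, and that of Phf21a began with such a repeat. Whether peaks on repeats or on mitochondrial DNA carry the mark was not tested.

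The 10 genes of the 3 P14 lists alone with the strongest peaks belonged to several cell functions. Lrba, a vesicle trafficking gene, had −log10 p values of 11.8, 9.70 and 7.66 at P14, with summits 296, 185 and 302 bp upstream of the start. Tpp2, which encodes a peptidase, had 8.29, 7.20 and 7.11, and Aftph, a clathrin-linked trafficking gene, 9.06, 7.20 and 6.95. Nsd1, an H3K36 methyltransferase gene, had 7.48, 6.80 and 7.72. Zfp143, a promoter-binding zinc finger gene, had 6.24, 6.99 and 7.78, and Fbxw7, a substrate receptor of a ubiquitin ligase, 7.69, 6.80 and 6.44. Mfsd14a, Rab14 and the pair Gak and Tmem175, which share a peak, completed the 10. These promoters had a peak in 21 to 24 of the 26 WT lists of the other marks, and all but Fbxw7 had an H4R3me2s peak in a dKO list at P7. A dKO list held a promoter peak for 58.9% of the genes of the 3 P14 lists alone and for 40.7% of all genes.

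Among the 10 genes of the P7 lists alone, Ccnd2, the gene of a G1 cyclin used by differentiating spermatogonia, had −log10 p values of 15.5 and 7.46, with summits 117 and 86 bp inside the start. Usp46, a deubiquitinase gene, had 6.61 and 6.65, with summits 211 and 206 bp upstream. Gosr1, the gene of a Golgi SNARE protein, had 10.6 and 4.44. In Srsf3, a splicing factor gene, with 14.2 and 5.13, the P7 replicate 1 summit lay in a later exon, 1981 bp from the start. For Sf3b4, Rbp7, Uso1 and Chil5 it also lay in a later exon, and for Rbp7 in P7 replicate 2 as well. These exons need not be of the named gene. The Rbp7 summits lay 2575 and 2648 bp and the Chil5 summit 2074 bp upstream of the start, in exons of other genes or pseudogenes. Uchl4 and Sap18b completed the 10. Of the 26 WT lists of the other marks, from 0 (Uchl4 and Chil5) to 20 (Usp46) had a peak at these promoters. Ccnd2, Usp46, Uchl4 and Sf3b4 kept both P7 peaks at a q-value of at most 0.01.

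Of the 9 genes of the protein arginine methyltransferase family, 5 and 7 had a promoter peak in the P7 lists and 8, 8 and 6 in the P14 lists, and the ages overlapped. By recurrence, all 9 had one in at least 2 P14 lists, against 34.2% of all genes, and 4 had one in both P7 lists, against 17.8%. Carm1, a type I enzyme gene that acts on H3, had −log10 p values of 8.89 and 6.09 at P7 and 9.40, 9.79 and 8.83 at P14. Prmt3, the gene of an enzyme with a ribosomal substrate, had 4.85 and 3.28 at P7 and 4.81, 2.37 and 5.09 at P14. Its summits were spread from 1576 bp upstream to 1064 bp inside the start, so the lists did not share a single region. Prmt5, whose product makes the mark, had no peak in either P7 list and values of 3.93 and 5.05 in P14 replicates 1 and 2, and it had none in P14 replicate 3. Prmt1 had a peak in both P7 lists, at 3.10 and 5.55, and in P14 replicates 1 and 3, at 3.79 and 5.16. With lists cut to equal length Prmt5 kept a peak in 1 list and Prmt1 in 3.

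Of 6 Prmt5 partner genes, Prmt5 included, 1 was in all 5 lists and 3 in at least 2 P14 lists and no P7 list, and of 7 genes of readers and erasers of arginine methylation 4 were in all 5 lists and 1 in none, against 8.73% of all genes in all 5 and 7.13% in P14 alone. Wdr77, the Prmt5 partner, was in all 5 lists, with −log10 p values of 6.24 and 3.43 at P7 and 8.11, 6.02 and 6.93 at P14. Snd1, Akap1 and Smndc1, whose products have Tudor domains, and Jmjd6, a proposed demethylase gene, were in all 5 lists. Prdm1, the gene of a Prmt5-associated factor of early germ cells, was in the 3 P14 lists alone, at 5.93, 5.87 and 7.72. Among chromatin modifiers, 7 of 25 were in all 5 lists, compared with 8.73% of all genes, and these were the Polycomb genes Ezh2, Eed and Suz12 with Hdac2, Kmt2b, Dnmt3a and Tet1.

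**Figure D5:**
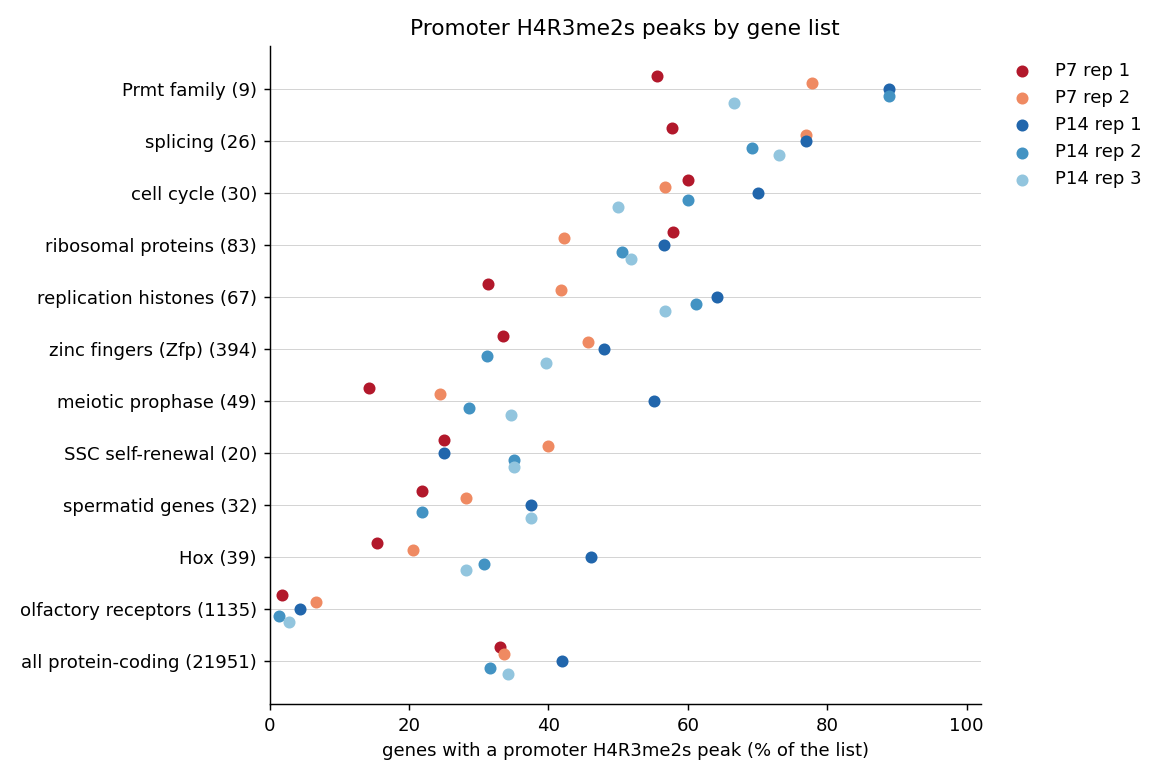
Each row is a list of genes, with the number measured in brackets, and the x axis gives the percentage of its genes with a promoter peak in each of the 5 WT H4R3me2s lists, 1 point a list. The last row gives all protein-coding genes, at 33.1% and 33.7% at P7 and 41.9%, 31.6% and 34.2% at P14.

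Of 49 meiotic prophase genes, 7 and 12 had a promoter peak in the P7 lists and 27, 14 and 17 in the P14 lists, where all genes had shares of 33.1% and 33.7% and of 41.9%, 31.6% and 34.2%. Both P7 counts were below the shares over all genes, and those of P14 replicates 2 and 3 were near them. In at least 2 P14 lists and no P7 list there were 11 (22.4%, against 7.13% of all genes): Spo11, Mei4, Dmc1, Psmc3ip, Meiob, Msh4, Msh5, Mlh3, Syce1, Sycp2 and Tex15. Spo11, which encodes the enzyme of meiotic DNA breaks, had −log10 p values of 3.28, 4.13 and 3.27 at P14, and Mei4, a partner in break formation, 4.07, 5.87 and 3.66. These were weak peaks, and at a q-value of at most 0.01 none of the 49 was in at least 2 P14 lists and no P7 list. The share of all genes was then 3.32%. With lists of equal length 7 of the 49 were, against 7.15% of all genes. Without P14 replicate 1, 2 or 3 the 11 fell to 4, 7 and 4, where both remaining lists had to hold the peak and all genes fell to 3.21%, 4.24% and 3.70%. Without P7 replicate 1 or 2 they were 14 and 16, where all genes were 13.98% and 13.6%. H3K4me3 in both lists of an age marked 35 of the 49 promoters at P7 and 47 at P14, against 60.7% and 63.1% of all genes, and H3K27ac marked 20 and 46, against 31.0% and 48.9%.

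Of 67 replication-dependent histone genes, 21 and 28 had a promoter peak at P7 and 43, 41 and 38 at P14, where all genes had shares of 33.1% and 33.7% and of 41.9%, 31.6% and 34.2%. The P7 counts lay around those shares and the P14 counts above them. Without later-exon peaks the counts were 19 and 25 at P7 and 42, 39 and 36 at P14. In at least 2 P14 lists and no P7 list there were 17 (25.4%, against 7.13% of all genes), among them the linker histone genes Hist1h1c and Hist1h1e. Hist2h4, an H4 gene, had −log10 p values of 3.22, 4.42 and 4.36 at P14. These genes lie in clusters and neighbours share peaks, as Hist1h2ah and Hist1h2bk did, so the counts are not of independent regions. The 17 fell to 11 with promoters of 1000 bp, where all genes were 6.97%, and to 0 at a q-value of at most 0.01, where all genes were 3.32%. Without P14 replicate 1, 2 or 3 they fell to 6, 10 and 9, where all genes fell to 3.21%, 4.24% and 3.70%, and without P7 replicate 1 or 2 they were 27 and 30, where all genes were 13.98% and 13.6%.

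Gene lists of general cell functions had a promoter peak in at least the shares over all genes in most lists, which were 33.1% and 33.7% at P7 and 41.9%, 31.6% and 34.2% at P14. Of 83 ribosomal protein genes, 48 and 35 had a promoter peak at P7 and 47, 42 and 43 at P14, with 12 in all 5 lists (against 8.73% of all genes), 12 in at least 2 P14 lists and no P7 list (against 7.13%), and 3 (Rps9, Rps21 and Rpl30) in the P7 lists alone (against 1.33%). Rplp0, a stalk protein gene, had −log10 p values of 6.87, 4.84 and 6.87 at P14. Of 26 splicing genes, 15 and 20 had a peak at P7 and 20, 18 and 19 at P14. Hnrnpa2b1, an RNA-binding protein gene, had 35.2 in P7 replicate 1 and 7.74, 15.2, 8.92 and 5.87 in the other lists. Of 30 cell cycle genes, 18 and 17 had a peak at P7 and 21, 18 and 15 at P14, and the replication genes Mcm4 and Pcna were in all 5 lists.

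Of 9 transcription factor genes that the study discusses for this mark, 4 and 4 had a promoter peak at P7 and 3, 3 and 3 at P14, near the shares over all genes of 33.1% and 33.7% and of 41.9%, 31.6% and 34.2%. The study chose these genes, in part from RNA of the same series. Etv5, a factor of spermatogonial stem cell renewal, was in all 5 lists, with −log10 p values of 2.33 and 7.33 at P7 and 4.29, 6.93 and 7.48 at P14. Pou3f1, a factor of the same network, had 4.58 and 4.41 at P7, with summits 618 bp inside and 344 bp upstream of the start, and no P14 peak. Id4, an inhibitor gene of stem-like spermatogonia, had 3.10 in P7 replicate 2 and 4.62 and 3.46 in P14 replicates 2 and 3. Taf4b, the gene of a germ cell TFIID subunit, had 5.52 in P7 replicate 2 and 9.21 and 7.03 in P14 replicates 2 and 3. Lhx1, a homeobox gene, had 4.75 in P7 replicate 1, from a later-exon peak, and 4.14 in P14 replicate 1. Zbtb16, a marker of undifferentiated spermatogonia, had 4.75 in P7 replicate 1 alone, Sohlh2, a differentiation factor gene, 4.98 in P14 replicate 1 alone, and Bcl6b and Pou5f1 had no peak in any list.

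The H4R3me2s lists of Prmt1 dKO testes at P7 set the P7 WT lists in context. Promoters held 25.7% and 24.9% of the dKO peaks, and their median width was 200 bp in both. By these measures P7 replicate 2, at 28.9% and 200 bp, lay nearer to the dKO lists than P7 replicate 1, at 48.7% and 213 bp, did. By overlap it did not, since the Jaccard index with the dKO lists was 0.0451 and 0.0419 for P7 replicate 1 and 0.0440 and 0.0389 for P7 replicate 2. It was 0.0496 to 0.0595 for the P14 lists and 0.0381 between the dKO lists. At P14, where both forms had 3 lists, the median H4R3me2s peak was 242 bp wide and the median H4R3me2a peak 278 bp, in means over lists, and the share of promoter peaks was 41.9% against 37.6% (two-sided exact permutation p = 0.3, where 0.1 is the smallest that 3 against 3 lists allow).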

How the data were processed

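CUT&Tag peaks of WT H4R3me2s at P7 and P14 were taken as the authors deposited them, 1 list per sample with no pooling, in mm10 coordinates. The authors called peaks with MACS2 2.1.0, and the submitters' processing notes also name fastp 0.23.2 and RSEM. For CUT&Tag, the aligner and any control library were not given in the sources used here. In the deposited lists, column values are the fold enrichment (a ratio) and the −log10 of the p-value and of the q-value, and no list held raw counts, so depth is unknown. The deposited TPM of RNA labelled WT at P7 (whole testis, n = 3, and Smart-seq2 of isolated spermatogonia, n = 2) were used as given. The paper describes the sorted control cells as heterozygous for floxed Prmt1 with Ddx4-CreERT2, and the RNA samples as taken after tamoxifen. The peak comparison and the gene lists were chosen with earlier results of these data known.

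A peak was assigned by its summit to GENCODE M21 promoters (3000 bp on each side of a start site) and otherwise to other features. Overlap was at least 1 bp, and a strong peak had a q-value of at most 0.01. Named genes were the 10 per class with the highest mean within-list percentile of −log10 p, plus the study's factors, the Prmt family and up to 6 per list, pseudogenes and Gm or Rik models left out. Ages were compared over lists by two-sided exact permutation tests in Python 3.11.15 (SciPy 1.17.1), which were tested on simulated data. MACS2 p-values depend on depth, so they were not compared as levels of the mark. Alternatives were strong peaks alone, lists of equal length, promoters of 1000 bp, removal of regions shared by at least 80% of the other WT lists, each list left out in turn, and, chosen after seeing the data, removal of later-exon peaks. The dKO RNA files were not used here, and a few items that the naming rule would take are not reported here.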

Additional observations from a re-analysis of the deposited data

How the results depend on the processing

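Of 100 alternative values of the 10 results that compare the ages, 82 were called the same, 16 moved and 2 reversed. For a difference between ages, the same means only the same sign, whatever its size, since no exact p could fall below 0.05. For a count of genes it means a value within a factor of 1.5. Peaks with a q-value of at most 0.01 turned the difference in median width from 35.5 bp to -19.3 bp, and cut the genes recurrent at P7 to 342, those recurrent at P14 to 1438, those recurrent at P14 and in no P7 list to 729, those recurrent at P7 and in no P14 list to 31 and those in all 5 lists to 151. Fewer peaks entered these counts. The width order turned back once later-exon peaks were also left out. Removing regions that peaked in at least 80% of the other WT lists left 1252 genes in all 5 lists. Requiring all 3 P14 lists gave 3596 genes at P14 and 440 with no P7 list, by construction. With 1 list left out in turn, the promoter difference ran from -6.78 (without P7 replicate 2) to 13.04 percentage points (without P7 replicate 1), genes recurrent at P14 from 4423 (without P14 replicate 1) to 7515, genes recurrent at P14 and in no P7 list from 704 (without P14 replicate 1) to 3069 (without P7 replicate 1; 2986 without P7 replicate 2; 930 without P14 replicate 2; 812 without P14 replicate 3), and genes recurrent at P7 and in no P14 list from 429 to 597 (without P14 replicate 1). Genes recurrent at P14 numbered 4955 without P14 replicate 3. Counts of recurrence at P7 have no value when a P7 list is left out, and with 2 P14 lists recurrence means both. Without later-exon peaks, an alternative chosen after seeing the data, the width difference was 43 bp, the promoter difference 4.50 and the X difference -0.296 percentage points, and genes recurrent at P14 and in no P7 list numbered 1608.

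The replicate numbers are not stated to pair samples. With the number as a replicate block over the 2 numbers both ages share, the promoter difference was 2.82 percentage points (-11.3 and 17.0 in the pairs), the width difference 36.5 bp, the X difference -0.480 and the H3K4me3 difference 8.26 points (-2.18 and 18.7 in the pairs; 2.57 to 14.9 with 1 list left out in turn), and no exact p could fall below 0.5. Unknown depth, 2 P7 lists and the label of the P14 samples limit all these comparisons.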

Other observations

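Sensory receptor families, of which few members are expressed in the testis, had promoter peaks far below the shares of 31.6% to 41.9% over all genes. Of 1135 olfactory receptor genes, 21 and 75 had a promoter H4R3me2s peak in the P7 lists and 50, 16 and 32 in the P14 lists. The counts followed the length of the lists, with the longer list of each age, P7 replicate 2 and P14 replicate 1, holding the most. Of 331 vomeronasal receptor genes, 6 and 19 had a peak at P7 and 8, 5 and 7 at P14. Of 113 keratin and keratin-associated protein genes, 15 and 14 had a peak at P7 and 7, 7 and 7 at P14. Of 39 Hox genes, which pattern the body axis, 6 and 8 had a peak at P7 and 18, 12 and 11 at P14.

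Cell type markers had promoter peaks at or below the shares over all genes in most lists, which were 33.1% and 33.7% at P7 and 41.9%, 31.6% and 34.2% at P14. Of 20 germ cell genes, 2 and 7 had a peak at P7 and 7, 5 and 8 at P14. Of 19 Sertoli cell genes, 5 and 6 had a promoter peak at P7 and 7, 2 and 4 at P14, and Ctsl, a cathepsin gene, was in all 5. Of 10 macrophage genes, 1 and 2 had a peak at P7 and 0, 3 and 0 at P14. Of 32 spermatid genes, 7 and 9 had a peak at P7 and 12, 7 and 12 at P14, and Crem, a regulator of spermatid genes, Odf2 and Catsper2 were in all 5. In contrast, the 394 zinc finger genes of the Zfp series, with 132 and 180 at P7 and 189, 123 and 156 at P14, were above those shares in all lists but P14 replicate 2.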
